A study of Mus musculus with 8 samples.

Results

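The cell culture experiment was carried out on 2 occasions, and the transcripts of the second occasion were compared with those of the first. All 8 arrays of the series entered this comparison, 4 from each occasion, and they were chosen by the replicate number in their labels. Each array of the second occasion was paired with the array of the same group from the first occasion, which gave 4 pairs. The groups were CT26 cells cultured alone, CT26 cells cocultured with RAW264 macrophages, RAW264 macrophages (RAW below) cultured alone, and RAW cocultured with CT26. CT26 is an established mouse colon tumour line labelled as epithelial, and RAW is an established mouse macrophage line. Both were kept in RPMI 1640 medium, and no drug or genetic change is named for any group. In coculture, CT26 cells grew in a well and RAW cells in an insert, so that soluble molecules could pass while the cells did not touch. The inserts were placed in the wells 8 h after seeding. RAW cells were lysed directly in the insert but CT26 cells were first released from the plate with trypsin, and labelled cRNA was made from 5 µg of total RNA.

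Of 18193 genes with a probe set of their own, 13196 lay above the floor in at least 1 group and were tested. Every value is a log2 level, and a shift is the second occasion minus the first, so that a shift of 1 log2 unit is a doubling. A gene was called, and is said to have risen or fallen, when its adjusted p in limma was under 0.05. The labels name the arrays only as first or second, so the cultures, the RNA preparation, the labelling and the hybridisation of an occasion cannot be told apart. The p-values set a shift against the spread over the 4 pairs of these 2 occasions and do not describe other occasions.

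Immediate-early genes are transcribed within minutes of a growth factor or mechanical signal, hypoxia targets are switched on by HIF when oxygen falls near the cells, and interferon-stimulated genes are switched on by STAT and IRF factors in response to interferon. The arrays also carry control probe sets for ribosomal RNA and for bacterial RNAs that are added before amplification or at hybridisation.

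The lines kept their identity on both occasions. The macrophage genes Csf1r, the receptor of colony-stimulating factor 1, and Lyz2, lysozyme, lay between 14.48 and 15.31 in the 4 RAW arrays and between 5.35 and 6.43 in the 4 CT26 arrays. The leukocyte gene Ptprc lay at 12.18 to 12.4 in RAW and 3.83 to 4.6 in CT26. The epithelial keratins Krt18 and Krt20 lay at 9.97 to 11.55 in CT26 and 4.6 to 5.42 in RAW, but Cdh1, which encodes E-cadherin, stayed at 3.6 to 3.87 in every array, below the floor of 5.21 to 5.28, and Epcam did not separate the lines (6.82 to 6.97 in CT26, 6.82 to 7.15 in RAW). The mean of 27 macrophage markers lay at 5.64 to 5.7 in the 4 CT26 arrays and 11.17 to 11.31 in the 4 RAW arrays, and 0 of 5 tested lymphoid markers were called.

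The shift between occasions was broad and in part common to the lines. In the fit with 1 shift for all 4 pairs, 3707 of 13196 genes (28.1%) were called, 2218 of them higher (16.8%) and 1489 lower (11.3%) on the second occasion. Most shifts were small: the median absolute shift of a pair was 0.16 in CT26 alone, 0.19 in CT26 coculture, and 0.22 in both RAW pairs. In every pair 19 genes (0.144%) were higher by more than 1 log2 unit, and 1 gene (0.00758%), Rbm39, was lower by more than 1. Without regard to any test, 3280 genes (24.9%) were higher in all 4 pairs and 2876 (21.8%) were lower in all 4. Leaving out the CT26 coculture pair lowered the number called to 2353, and leaving out the RAW coculture pair lowered it to 2169. In the latter, 2091 of the 3707 genes were called again.

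Occasion outweighed coculture in these arrays. The difference between the lines was set aside. Of the remaining sum of squares over the tested genes, 51.8% lay between occasions, 14.9% between coculture and culture alone, 10.8% in the difference of the coculture effect between the lines, and 13.5% in the difference of the occasion shift between the lines. The difference of the occasion shift between coculture and culture alone took 4.72%. Across the 13196 genes the shifts of 2 pairs correlated at r = 0.754 between the CT26 pairs, 0.765 between the RAW pairs, and 0.484 to 0.561 between a CT26 and a RAW pair. These are descriptions across genes, and the pairs share the same 2 occasions.

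The genes with the largest shared rises included a receptor and regulators of adhesion, transcription and splicing. Itga5, the integrin alpha chain of the fibronectin receptor, stood at 7.59 and then 9.2 in CT26 alone, 7.74 and 9.27 in CT26 coculture, 9.01 and 11.1 in RAW alone, and 7.81 and 9.98 in RAW coculture. The second array of each pair was at least 1.53 log2 units above the first, and the mean rise was 1.85 ± 0.12 (SE; 3.61-fold; limma adjusted p = 0.00109). Its 3 other, dimmer probe sets shifted by 0, 0.58 and 1.34. Scaf1, an SR-related protein that binds the tail of RNA polymerase II, rose from 7.26 to 8.94 and from 7.4 to 9.06 in the CT26 pairs, and from 6.7 to 8.04 and from 6.22 to 8.1 in the RAW pairs. In each line the 2 arrays of the second occasion lay above both arrays of the first, with a mean rise of 1.64 ± 0.1.

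Zbtb7a, a transcriptional repressor of the POK family, rose by 1.63 ± 0.07, Git1, an adaptor of focal adhesions, by 1.48 ± 0.11, and Foxp4, a forkhead factor, by 1.47 ± 0.11. Arhgef1, a guanine nucleotide exchange factor, went from 9.42 to 10.65 and from 9.27 to 10.76 in the CT26 pairs and from 9.69 to 11.16 and from 9.67 to 11.18 in the RAW pairs. Its 4 shifts of 1.23 to 1.51 lay close together. Raver1, a binding partner of the splicing regulator PTB, rose by 1.41 ± 0.1, and Nfic, a nuclear factor I protein, by 1.38 ± 0.07. Nfic was also higher with 4 other probe sets, whose mean shifts lay between 0.97 and 2.21. Of the other probe sets of Zbtb7a, by contrast, 1 shifted by 0.28 and 1 by 0.19. Those of Foxp4 shifted by 0.69 and -0.05, and that of Arhgef1 by 0.14. Some probe sets of called genes lay above the floor but did not represent the gene. Of these, 1323 of 1775 (74.5%) had a positive mean shift for genes called higher. For genes called lower, 1073 of 1515 (70.8%) had a negative one. Over all tested genes, 50.3% of such probe sets had a positive mean shift.

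Klf2, Trib1, Anpep and Plekho2 rose in every pair, but further in RAW. Klf2, a Krüppel-like factor that restrains inflammatory transcription, went from 8.5 to 9.54 and from 8.63 to 9.46 in the CT26 pairs and from 7.62 to 9.62 and from 7.89 to 9.8 in the RAW pairs. The rise was 0.94 ± 0.09 in CT26 and 1.95 ± 0.09 in RAW, a difference of 1.01 ± 0.13 (limma adjusted p = 0.0214, and 0.0839 without the CT26 coculture pair). For Anpep, the membrane aminopeptidase CD13, the rise was 0.73 in CT26 and 2.07 in RAW, and the difference was 1.35 ± 0.13 (adjusted p = 0.0154). For Plekho2 the lines differed by 1.26 ± 0.19 (adjusted p = 0.031, and 0.0827 without the CT26 alone pair). For Trib1, a pseudokinase, the difference of 0.78 ± 0.14 missed the threshold (adjusted p = 0.0501).

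**Figure D1:**
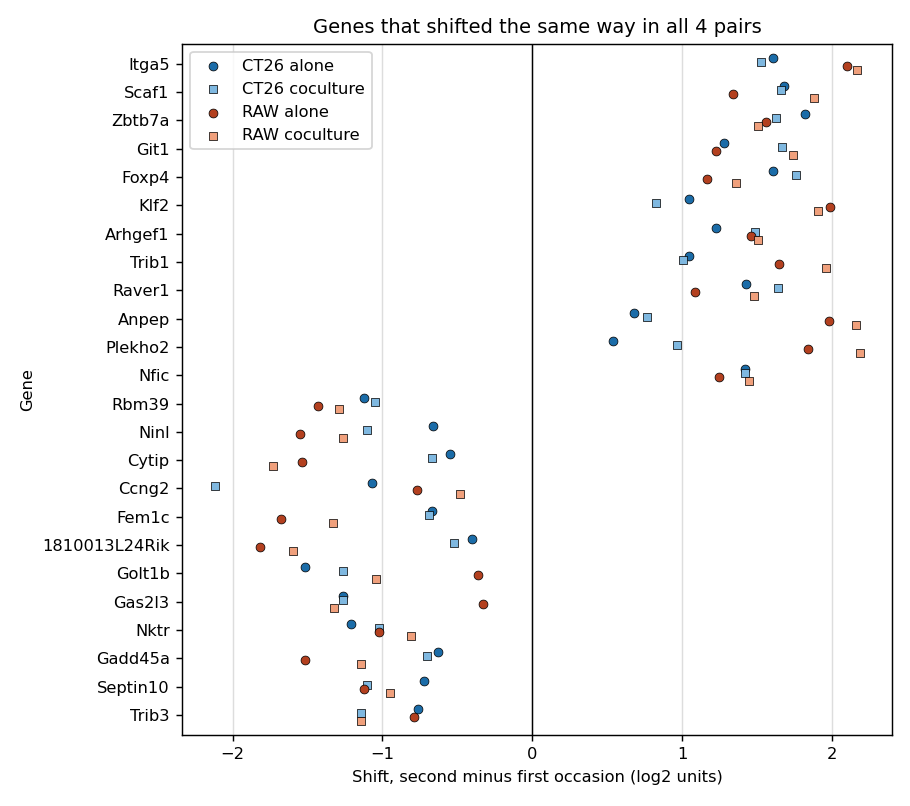
Shift of the 12 genes with the largest shared rise and the 12 with the largest shared fall; the x axis gives the second minus the first occasion in log2 units and each point is 1 pair of arrays. All points of the first 12 genes lie to the right of 0 (Itga5 at 1.53 to 2.17) and all points of the last 12 to the left.

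The largest shared fall was that of Rbm39, an SR-like protein that takes part in splicing and in nuclear receptor coactivation. Its level went from 12.47 to 11.35 in CT26 alone, from 12.49 to 11.44 in CT26 coculture, from 12.48 to 11.05 in RAW alone and from 12.74 to 11.45 in RAW coculture. The 4 arrays of the second occasion lay below the 4 of the first, and the gene fell by 1.22 ± 0.08 (SE; 2.33-fold; adjusted p = 0.00109). Of its 11 other probe sets, all had a negative mean shift, between -0.17 and -1.57.

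Ninl, a centrosomal protein, fell by 1.14 ± 0.14, although both RAW arrays of the second occasion were below the floor. Cytip, which binds the integrin regulator cytohesin, fell by 1.12 ± 0.21, and the RAW shift minus the CT26 shift was -1.02 ± 0.13 (adjusted p = 0.0213, but 0.071 without the CT26 alone pair and 0.0557 without the CT26 coculture pair). Ccng2, an unconventional cyclin that rises in quiescent cells, stood at 9.08 and 10.06 in the first CT26 arrays, alone and in coculture, and at 8.01 and 7.94 in the second. Its shift of -2.12 in CT26 coculture was the widest, against -1.07, -0.77 and -0.48 in the other pairs, and the shared fall of 1.11 ± 0.25 (adjusted p = 0.0178) had an adjusted p of 0.0505 without the CT26 alone pair. Gadd45a, a growth arrest and DNA damage protein, fell by 1 ± 0.15, from 9.82 to 9.19 and 10.21 to 9.51 in CT26 and from 8.11 to 6.59 and 7.97 to 6.83 in RAW. Trib3, a pseudokinase induced by ATF4, fell by 0.96 ± 0.09, from 11.43 to 10.67 and 11.67 to 10.53 in CT26 and from 8.12 to 7.33 and 9.15 to 8 in RAW. For both genes the arrays of the second occasion lay below those of the first in each line, and a second probe set of Trib3 shifted by -0.08.

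The other genes of this group were Golt1b, a Golgi transport protein (fall of 1.04 ± 0.18), Gas2l3, a cytoskeletal linker (1.04 ± 0.17), Septin10 (0.97 ± 0.08), Fem1c, a substrate receptor of a ubiquitin ligase (1.09 ± 0.18), the gene 1810013L24Rik (1.09 ± 0.25) and Nktr, a cyclophilin-like protein with SR repeats (1.02 ± 0.08). For 3 of them the probe sets did not move together. A second probe set of Nktr was higher by 1.05 and that of Fem1c by 0.2, and 2 probe sets of 1810013L24Rik were higher by 0.14 and 0.16. The call of 1810013L24Rik was lost without the RAW alone pair (adjusted p = 0.0575) and without the RAW coculture pair (adjusted p = 0.0727).

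Of 34 tested immediate-early genes, 14 rose and 1 fell in the shared fit, where 16.8% of all tested genes rose and 11.3% fell. In all 4 pairs 15 of them were higher. Their median shift was 0.22, 0.31, 0.36 and 0.38 in CT26 alone, CT26 coculture, RAW alone and RAW coculture, against medians between -0.01 and 0.02 over all tested genes. Junb, a subunit of AP-1, went from 8.78 to 9.53 and from 8.68 to 9.73 in the CT26 pairs, and from 10.09 to 11.09 and from 9.77 to 11.05 in the RAW pairs. Each second array exceeded its first, with a rise of 1.02 ± 0.09 (adjusted p = 0.0014). Zfp36, which encodes the mRNA-destabilising protein tristetraprolin, rose by 1.02 ± 0.12, Fos by 0.88 ± 0.1 and Fosl1 by 0.86 ± 0.12. Myc rose by 1.14 ± 0.24, with 1.7 in RAW and 0.57 in CT26 (adjusted p of the difference 0.0526), and its adjusted p of 0.0158 became 0.0604 without the RAW coculture pair.

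Targets of serum response factor and YAP, which follow actin tension and cell spreading, rose in 9 of 26 tested members and fell in 0, against 16.8% and 11.3% of all tested genes, with a median shift of 0.17. Zyx, a focal adhesion protein, went from 7.77 to 8.89 and 7.8 to 8.94 in CT26 and from 7.02 to 8.2 and 7.37 to 8.58 in RAW. Its 4 shifts were nearly equal, and the rise was 1.16 ± 0.06 (adjusted p = 0.00104). Mrtfa, the actin-regulated coactivator of serum response factor, rose by 1.07 ± 0.08, and Flna, an actin crosslinker, by 0.81 ± 0.07.

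Of 22 tested genes of the TGF-beta list, 10 rose and 0 fell, against 16.8% and 11.3% of all tested genes, with a median of 0.18. The ligand gene Tgfb1 went from 7.5 to 8.57 and from 7.64 to 8.93 in the CT26 pairs and from 9.78 to 11.25 and from 9.71 to 11.32 in the RAW pairs. The 2 occasions did not overlap within either line, and the rise was 1.36 ± 0.1 (adjusted p = 0.00109). Itgb5, an integrin beta chain that can activate latent TGF-beta, rose by 0.95 ± 0.09, Ski, a repressor of SMAD transcription, by 0.91 ± 0.1, and Pmepa1, an inhibitor of the pathway, by 0.8 ± 0.11.

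The lysosome list held 18 genes that rose and 5 that fell among 42 tested, where 16.8% of all tested genes rose and 11.3% fell, and its median was 0.17. Atp6v0a1, a subunit of the proton pump, rose by 0.83 ± 0.11, the peptidase gene Tpp1 by 0.71 ± 0.11, the protease gene Ctsd by 0.61 ± 0.12, and Lamp1, a membrane glycoprotein of lysosomes, by 0.57 ± 0.07. Lamp1 lay at 12.45 to 12.85 in the 4 first arrays and at 13.09 to 13.32 in the 4 second ones, with no overlap.

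Some proteasome and respiratory chain genes fell by small amounts. Of 34 tested proteasome subunits, 11 fell and 2 rose, where 11.3% of all tested genes fell and 16.8% rose, and 24 were lower in all 4 pairs. Psmc1, an ATPase of the regulatory particle, fell by 0.43 ± 0.06 and Psmb6, a catalytic subunit, by 0.35 ± 0.07, while Psmd3, another regulatory subunit, rose by 0.58 ± 0.06. Of 72 respiratory chain subunits, 15 fell and 3 rose against the same shares of all tested genes, 46 were lower in all 4 pairs, and the median was -0.14. Both lists were bright, the respiratory chain with array means of 12.35 to 12.55. In the brightest of 5 bins of tested genes by mean level (10.3 to 15.1), 19.2% fell and 17.7% rose, so a share of falls near 19.2% is not particular to a list. Atp5e, a subunit of ATP synthase, fell by 0.58 ± 0.1 and Uqcr10, of complex III, by 0.43 ± 0.07, while Ndufa10, of complex I, rose by 0.4 ± 0.06.

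Of 19 tested clock genes, 7 fell and 2 rose, where 11.3% of all tested genes fell and 16.8% rose. The median of the RAW pairs was -0.14, and it was 0.06 when all probe sets of a gene were averaged. Nr1d1, the repressor REV-ERB alpha, stood at 9.03 and 8.92 in the first CT26 arrays and 8.43 and 8.55 in the second, and at 9.32 and 9.1 in the first RAW arrays and 7.91 and 8.45 in the second. It fell by 0.76 ± 0.16 (adjusted p = 0.0158). Ciart, a repressor of the same loop, fell by 0.46 ± 0.08 and Cry1 by 0.43 ± 0.09, whereas Csnk1e, the kinase that marks PER proteins for breakdown, rose by 0.81 ± 0.06. Of 22 genes of cholesterol synthesis, 8 fell and 2 rose against those same shares, with a median of -0.22. Fdft1, squalene synthase, fell by 0.59 ± 0.08, the feedback gene Insig1 by 0.44 ± 0.07 and the transfer protein gene Stard4 by 0.4 ± 0.07. Srebf2, the transcription factor of this pathway, rose by 0.53 ± 0.08 and Dhcr7, its last enzyme, by 0.56 ± 0.09.

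In the shared fit and in RAW more genes of cell division fell than rose, and genes of the amino-acid response moved both ways. In the shared fit 5 of 48 DNA replication genes rose and 10 fell, and 5 of 45 mitosis genes rose and 12 fell, against 16.8% and 11.3% of all tested genes. The array means of both lists lay in the range of the brightest of 5 bins by level, where 17.7% rose and 19.2% fell. In RAW 16 members of each list fell and 3 of each rose, where 12.9% of all tested genes fell and 18.1% rose, and the medians were -0.2 and -0.15. In CT26 the medians were 0.02 and -0.02, and 0 genes of either list differed between the lines by the test of that difference. Gins1, of the replicative helicase, fell by 0.6 ± 0.11, Pold1 by 0.57 ± 0.07, Pola1 by 0.49 ± 0.1 and Rfc4 by 0.48 ± 0.11. Against the direction of most called members, the mitotic kinase gene Plk1 rose by 0.77 ± 0.07 and the phosphatase gene Cdc25b by 0.63 ± 0.1. E2f1 rose by 0.51 ± 0.07 and the cyclin gene Ccne1 by 0.52 ± 0.08. In the ATF4 list 10 of 49 genes rose and 7 fell, near the shares of all tested genes (16.8% and 11.3%). Ddit3, the stress factor CHOP, fell by 0.65 ± 0.11, while Chac1, which degrades glutathione, rose by 0.77 ± 0.11 and Slc7a5, a transporter of large amino acids, by 0.67 ± 0.08.

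**Figure D2:**
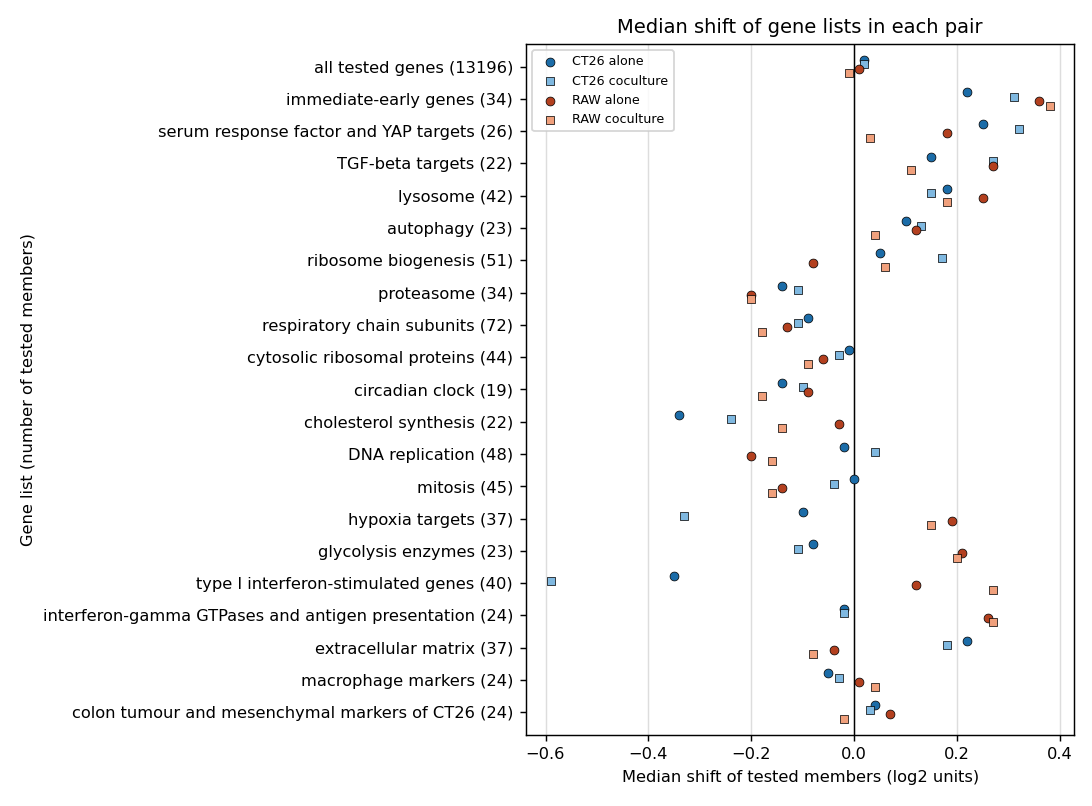
Median shift of the tested members of 20 gene lists and of all tested genes in each pair, in log2 units on the x axis, 1 point per pair. The medians of all tested genes lie within 0.02 of 0, immediate-early genes lie at 0.22 to 0.38, and hypoxia and interferon-stimulated genes lie on opposite sides of 0 in CT26 and RAW.

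A smaller set of genes shifted differently in the lines. In CT26 alone and coculture together 2629 genes (19.9%) were called, 1736 higher and 893 lower, and in the RAW pairs 4093 (31%), 2391 higher (18.1%) and 1702 lower (12.9%). The CT26 count rested on both of its pairs, and it was 862 without the CT26 alone pair and 265 without the CT26 coculture pair. The RAW count was 2537 without the RAW coculture pair. In both lines 1231 genes rose (9.33%) and 455 fell (3.45%), while 59 (0.447%) were called with opposite signs, 53 of them (0.402%) with a called difference between the lines. The difference of the 2 shifts was itself called for 269 genes (2.04%), of which 172 (1.3%) had the higher shift in RAW and 97 (0.735%) in CT26. That count was 105 without the CT26 alone pair and 98 without the CT26 coculture pair. Called in CT26, not called in RAW and different between the lines were 42 genes that rose (0.318%) and 33 that fell (0.25%), and the converse held for 88 that rose (0.667%) and 28 that fell (0.212%) in RAW. A gene not called in a line may still have shifted there.

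**Figure D3:**
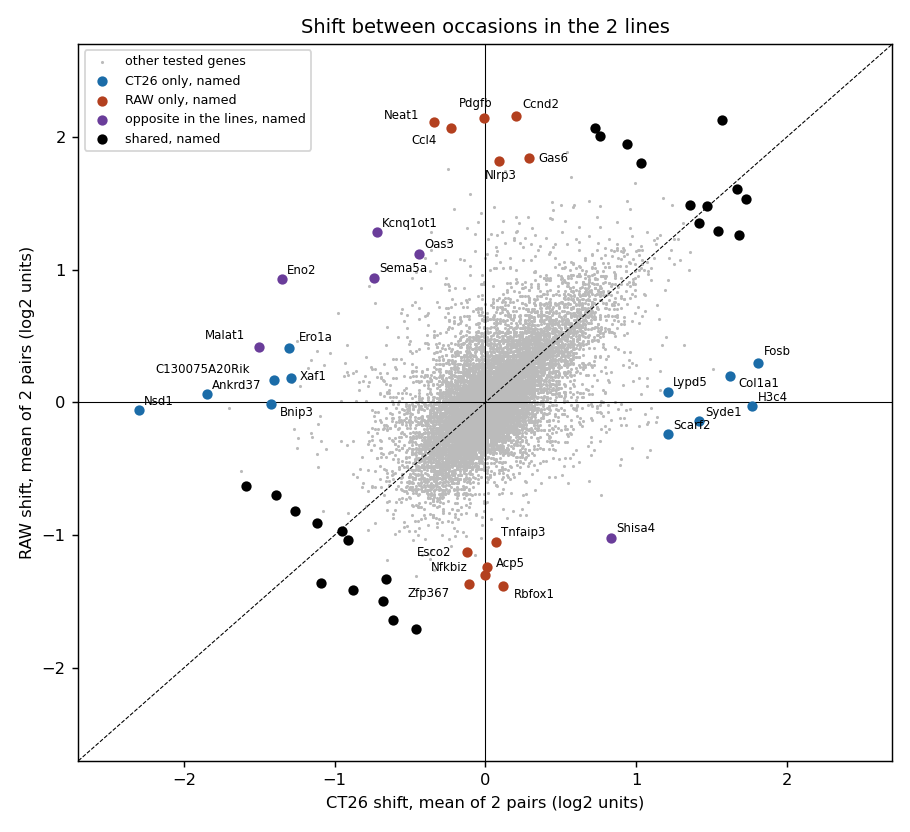
Shift of each tested gene in CT26 (x axis, mean of 2 pairs, log2 units) and in RAW (y axis, the same), with the genes named in the text as large points and the dashed line marking equal shifts. Genes of the CT26 group lie near the horizontal axis (Nsd1 at -2.3 and -0.06), those of the RAW group near the vertical axis (Ccnd2 at 0.2 and 2.16), and the purple points in the upper left and lower right quadrants.

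Hypoxia targets and interferon-stimulated genes were among the genes that fell in CT26, and the promoters of 3 of each are shown because matches to their usual response elements lie in them. The sequences are those of RefSeq, build GRCm38.p6, 250 bases before to 50 after the start of the gene, 5′ to 3′ on the strand of the gene. Capitals in the first 3 mark ACGTG or its reverse complement CACGT, the core of a hypoxia response element.
Ankrd37, chr8:45999801-46000100, minus strand:
Ankrd37: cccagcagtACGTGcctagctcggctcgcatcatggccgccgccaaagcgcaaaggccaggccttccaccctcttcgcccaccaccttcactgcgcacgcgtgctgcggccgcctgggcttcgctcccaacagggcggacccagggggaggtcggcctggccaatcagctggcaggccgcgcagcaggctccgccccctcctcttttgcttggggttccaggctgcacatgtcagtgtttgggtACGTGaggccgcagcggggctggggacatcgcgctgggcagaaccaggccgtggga
Bnip3, chr7:138909457-138909756, minus strand:
Bnip3: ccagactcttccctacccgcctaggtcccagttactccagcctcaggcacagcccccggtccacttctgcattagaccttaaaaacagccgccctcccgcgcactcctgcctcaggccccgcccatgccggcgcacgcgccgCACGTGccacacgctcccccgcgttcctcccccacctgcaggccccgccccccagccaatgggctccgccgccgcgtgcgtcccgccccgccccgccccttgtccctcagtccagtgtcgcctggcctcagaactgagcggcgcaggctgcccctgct
Ero1a, chr14:45318523-45318822, minus strand:
Ero1a: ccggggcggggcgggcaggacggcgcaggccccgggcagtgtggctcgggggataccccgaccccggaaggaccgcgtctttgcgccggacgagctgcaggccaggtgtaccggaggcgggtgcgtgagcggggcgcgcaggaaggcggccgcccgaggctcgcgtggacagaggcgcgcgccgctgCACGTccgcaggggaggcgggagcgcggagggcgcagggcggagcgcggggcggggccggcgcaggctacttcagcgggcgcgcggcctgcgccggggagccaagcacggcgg
The core is common, being held on either strand by 19.7% of 27025 RefSeq promoters of this length and by 25% of those of tested genes, and the match does not show a binding site. Of the hypoxia list, 17 of 30 promoters held it (56.7%), among them 7 of the 11 that belonged to genes that fell in CT26. The promoters of Eno2 and Pfkp, which belong to the list of glycolysis enzymes and not to the hypoxia list, held no match in this window.

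Of 37 tested hypoxia targets, 14 fell and 1 rose in CT26, where 6.77% of all tested genes fell and 13.2% rose. In RAW 2 fell and 9 rose, where 12.9% of all tested genes fell and 18.1% rose. The shift was higher in RAW for 6 members by the test of the difference, against 1.3% of all tested genes. Plod2, 1 of these 6, was below the floor in RAW, so that a fall there could not have been seen. For 3 of the 6 that call was lost without the CT26 coculture pair, with an adjusted p of 0.0999 for Plod2, 0.153 for P4ha1 and 0.106 for Ndrg1. The medians were -0.1 and -0.33 in CT26 alone and coculture and 0.19 and 0.15 in RAW alone and coculture. Ankrd37, an ankyrin repeat protein and direct HIF target, stood at 8.05 in CT26 alone and 9.32 in CT26 coculture on the first occasion, and at 6.68 and 7.01 on the second. In RAW alone it went from 6.86 to 7.08 and in RAW coculture from 7.71 to 7.61. Both CT26 arrays of the second occasion lay below both of the first, with a fall of 1.85 ± 0.21 (SE; 3.6-fold; adjusted p = 0.0039), while the RAW shift was 0.06 ± 0.21.

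Bnip3, a mitophagy receptor, went from 11.85 to 10.57 and from 12.62 to 11.06 in the CT26 pairs, and from 11.2 to 11.32 and from 12.14 to 12 in the RAW pairs. It fell by 1.42 ± 0.11 in CT26 (adjusted p = 0.00261) and shifted by -0.01 ± 0.11 in RAW. Ero1a, an oxidase that forms disulphide bonds in the endoplasmic reticulum, went from 12.12 to 11.1 and from 13 to 11.41 in CT26, and from 10.71 to 11.08 and 10.84 to 11.3 in RAW. Its fall in CT26 was 1.3 ± 0.14, and its RAW shift of 0.41 ± 0.14 missed the threshold (adjusted p = 0.0595). The glucose transporter gene Slc2a1 fell by 1.16 ± 0.15 in CT26, and Plod2, a collagen-modifying lysyl hydroxylase, by 1.1 ± 0.1. In RAW, where Plod2 was below the floor, other members rose, among them the transporter gene Slc2a3 by 0.72 ± 0.12 and P4ha1, a prolyl hydroxylase, by 0.63 ± 0.09. Of 23 tested glycolysis enzymes, 6 fell and 4 rose in CT26, where 6.77% of all tested genes fell and 13.2% rose, and 1 fell and 10 rose in RAW, where 12.9% fell and 18.1% rose.

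Eno2, the neuronal enolase and a HIF target, was called in opposite directions. It went from 8.33 to 7.47 and from 9.49 to 7.65 in the CT26 pairs, and from 5.19 to 5.79 and from 5.27 to 6.53 in the RAW pairs, where the first array alone was below the floor. The shift was -1.35 ± 0.24 in CT26 and 0.93 ± 0.24 in RAW, and the difference was 2.28 ± 0.34 (adjusted p = 0.0295). The CT26 call was lost without the CT26 coculture pair (adjusted p = 0.0961) and the RAW call without the RAW coculture pair (adjusted p = 0.168). Ndrg1, a stress-response protein of the hypoxia list, rose by 0.67 ± 0.16 in RAW, with an adjusted p of 0.0201 that became 0.104 without the RAW alone pair.

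Capitals in the following promoters mark GAAA repeated after 2 bases of any kind, or TTTC likewise on the other strand, a form of the interferon-stimulated response element, with overlapping matches in Oas1a.
Oas3, chr5:120777610-120777909, minus strand:
Oas3: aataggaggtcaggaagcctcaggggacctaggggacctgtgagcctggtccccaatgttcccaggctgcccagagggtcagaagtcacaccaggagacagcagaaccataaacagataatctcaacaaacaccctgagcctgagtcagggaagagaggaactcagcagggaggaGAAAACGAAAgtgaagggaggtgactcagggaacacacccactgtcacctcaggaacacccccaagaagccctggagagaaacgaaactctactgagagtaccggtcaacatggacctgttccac
Oas1a, chr5:120907476-120907775, minus strand:
Oas1a: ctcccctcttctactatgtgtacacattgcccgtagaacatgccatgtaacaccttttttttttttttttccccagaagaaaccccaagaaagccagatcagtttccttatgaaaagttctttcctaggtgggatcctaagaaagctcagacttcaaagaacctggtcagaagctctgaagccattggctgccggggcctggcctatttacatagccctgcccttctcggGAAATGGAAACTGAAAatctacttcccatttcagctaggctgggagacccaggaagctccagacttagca
Rsad2, chr12:26456403-26456702, minus strand:
Rsad2: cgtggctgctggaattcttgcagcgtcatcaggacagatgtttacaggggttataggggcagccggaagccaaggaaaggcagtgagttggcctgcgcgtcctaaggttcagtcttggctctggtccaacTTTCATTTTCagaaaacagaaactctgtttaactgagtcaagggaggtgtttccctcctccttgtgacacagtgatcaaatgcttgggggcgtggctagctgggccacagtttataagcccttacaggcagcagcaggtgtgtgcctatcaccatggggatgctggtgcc
On either strand 3.49% of the 27025 promoters and 2.84% of those of tested genes held this element. In the interferon list it was 13 of 29 promoters (44.8%), and 9 of the 13 that belonged to genes that fell in CT26, while that of Xaf1 held no match in this window.

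Of 40 tested type I interferon-stimulated genes, 19 fell and 1 rose in CT26, where 6.77% of all tested genes fell and 13.2% rose, and 34 were lower in both CT26 pairs. In RAW 0 fell and 9 rose, where 12.9% of all tested genes fell and 18.1% rose. For 13 members the shift was higher in RAW by the test of the difference, against 1.3% of all tested genes. For Oas1a and Rsad2 that call was lost without the CT26 coculture pair (adjusted p = 0.114 and 0.185) and without the CT26 alone pair (0.0577 and 0.0837), and for Rsad2 also without the RAW coculture pair (0.0752). The list medians were -0.35 in CT26 alone, -0.59 in CT26 coculture, 0.12 in RAW alone and 0.27 in RAW coculture. Xaf1, an interferon-induced antagonist of the apoptosis inhibitor XIAP, stood at 9.8 and then 8.6 in CT26 alone and at 10.91 and then 9.52 in CT26 coculture. In RAW it stood at 8.7 and 8.77 alone and at 11.47 and 11.76 in coculture, so that the coculture arrays were the higher ones on both occasions. It fell by 1.29 ± 0.1 in CT26 (adjusted p = 0.00261), with a RAW shift of 0.18 ± 0.1.

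Rtp4, an interferon-induced chaperone of receptors, went from 9.85 to 8.87 and from 10.97 to 9.58 in CT26, a fall of 1.18 ± 0.11. Usp18, which removes ISG15 and damps interferon signalling, went from 9.39 to 8.49 and from 10.72 to 9.37, a fall of 1.12 ± 0.13. Trim30a fell by 1.28 ± 0.13, and Oas1a, an oligoadenylate synthetase, by 0.96 ± 0.1. For Rtp4 and Usp18 the shift was higher in RAW than in CT26 by 1.44 ± 0.16 and 1.51 ± 0.18 (adjusted p = 0.0177 and 0.0195). When the probe sets of Rtp4 were averaged, that difference missed the threshold (adjusted p = 0.0633).

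In RAW the factors of the pathway were among those that rose. Stat2, a subunit of the factor ISGF3, went from 6.07 to 7.07 alone and from 7.16 to 8.58 in coculture, a rise of 1.21 ± 0.12, against a CT26 shift of -0.25 ± 0.12. Irf7, which amplifies interferon production, went from 6.7 to 7.77 and from 10.43 to 11.53, a rise of 1.09 ± 0.13. Ifit1, an RNA-binding effector, rose by 1.14 ± 0.19. Oas3 was called in opposite directions: it went from 7.06 to 6.43 and from 7.63 to 7.37 in CT26 and from 6.78 to 7.8 and from 9.02 to 10.25 in RAW. Its RAW rise was 1.12 ± 0.12 (adjusted p = 0.00171), and its CT26 fall of 0.44 ± 0.12 (adjusted p = 0.0389) was not called without the CT26 alone pair (adjusted p = 0.333) or without the CT26 coculture pair (adjusted p = 0.0856). Rsad2, the antiviral enzyme viperin, fell by 0.38 ± 0.1 in CT26 and rose by 0.41 ± 0.1 in RAW. Its CT26 call was lost without either CT26 pair (adjusted p = 0.0893 and 0.386) and its RAW call without the RAW coculture pair (adjusted p = 0.139).

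**Figure D4:**
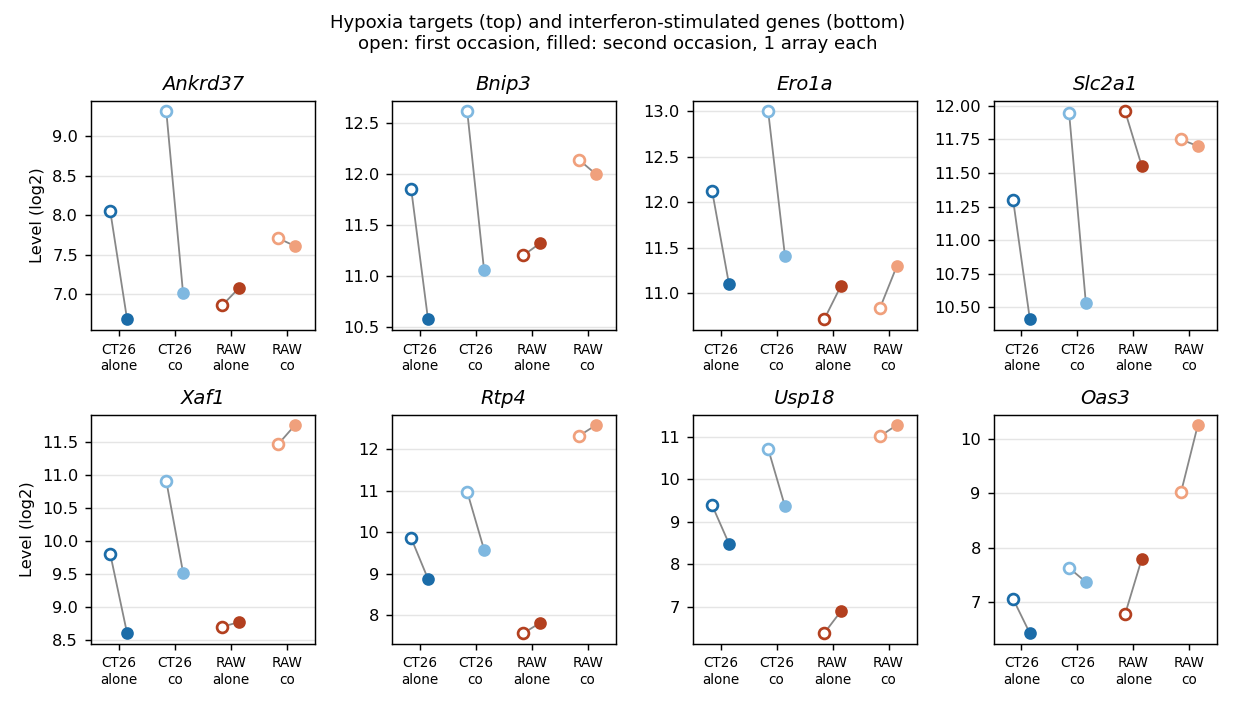
Level (log2, y axis of each panel) of 4 hypoxia targets and 4 interferon-stimulated genes in the 4 groups (x axis), with an open point for the array of the first occasion and a filled point for that of the second. In CT26 the filled points lie below the open ones in every panel, as for Ankrd37 (8.05 to 6.68 and 9.32 to 7.01), while in RAW they lie near or above them except for Slc2a1.

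Other genes that moved in CT26 and not by the test in RAW belonged to other functions. Nsd1, a histone methyltransferase, stood at 7.72 and 7.41 in the first CT26 arrays and at 5.38 and 5.14 in the second, the last below the floor, and it fell by 2.3 ± 0.1 (adjusted p = 0.0013), with RAW levels of 6.51 to 6.82 throughout. Its other probe sets were dim, with CT26 shifts of -0.15 to -0.67. The noncoding gene C130075A20Rik fell by 1.4 ± 0.17, with its RAW arrays all below the floor, so a fall there could not have been seen. Fosb, a subunit of AP-1, stood at 5.3 and 5.1 and then at 7.23 and 6.78 in CT26, a rise of 1.81 ± 0.1. The first CT26 coculture array and all 4 RAW arrays of Fosb were below the floor. H3c4, a histone H3 gene, rose by 1.77 ± 0.1 from 5.84 and 5.9 to 7.73 and 7.54, while the RAW arrays lay between 7.61 and 7.74.

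Of 37 tested members of the extracellular matrix list, 12 rose and 1 fell in CT26, where 13.2% of all tested genes rose and 6.77% fell. In RAW 4 rose and 3 fell, where 18.1% of all tested genes rose and 12.9% fell. Col1a1, a chain of type I collagen, went from 8.35 to 9.85 in CT26 alone and from 8.34 to 10.1 in CT26 coculture, while RAW arrays lay at 5.01 to 5.48. It rose by 1.62 ± 0.14 (adjusted p = 0.00276), although a second, dimmer probe set was higher by 0.38, and the difference between the lines had an adjusted p of 0.0272 that became 0.0839 without the CT26 coculture pair. Col4a2, of basement membrane collagen, rose by 0.9 ± 0.1, and Col3a1 by 0.79 ± 0.1, the latter with an adjusted p of 0.0727 without the CT26 coculture pair. In RAW Col4a2 was called lower, a call that was lost without the RAW coculture pair (shift of -0.27). Syde1 rose by 1.42 ± 0.1, the scavenger receptor gene Scarf2 by 1.21 ± 0.09, and Lypd5 by 1.21 ± 0.13. For Scarf2 the RAW arrays were all below the floor, and for Lypd5 3 of 4 were. Without the CT26 alone pair the difference between the lines was not called for Lypd5 (adjusted p = 0.0854) or for C130075A20Rik (0.0813).

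The largest rises called in RAW and not in CT26 included those of growth and inflammatory genes. Ccnd2, the cyclin D2 gene, stood at 4.6 and 4.8 on the first occasion, below the floor, and at 7.12 and 6.59 on the second, while CT26 held 12.37 to 12.59. It passed the filter on dim genes through its CT26 levels. The RAW shift was 2.16 ± 0.16 (adjusted p = 0.00101), given without a fold because the first arrays were below the floor, and its 6 other probe sets shifted by -0.07 to 1.24 in RAW. Pdgfb, a growth factor chain, went from 8.02 to 10.03 and from 7.05 to 9.33, a rise of 2.14 ± 0.16, and a second probe set was higher by 1.74. Ccl4, a chemokine, went from 8.02 to 9.99 and from 8.45 to 10.63, a rise of 2.07 ± 0.11 against a CT26 shift of -0.23 ± 0.11. Its neighbour in function Ccl3 rose by 1.24 ± 0.13, and Ptgs2, the inducible cyclooxygenase, by 1.28 ± 0.11. For these 2 genes the difference between the lines was not called without the CT26 alone pair (adjusted p = 0.125 and 0.0572) or without the CT26 coculture pair (0.105 and 0.0997).

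Gas6, a ligand of TAM receptors, rose by 1.84 ± 0.15, Nlrp3, an inflammasome sensor, by 1.82 ± 0.22, Egr2, an immediate-early zinc finger factor, by 1.47 ± 0.11, Laptm5, a lysosomal protein of leukocytes, by 1.28 ± 0.11, and Irf8, a factor of the myeloid lineage, by 1.26 ± 0.13. Other inflammatory genes fell in RAW. Nfkbiz, an atypical inhibitor of NF-kB, went from 9.77 to 8.17 and from 9.76 to 8.77, a fall of 1.3 ± 0.16, and Tnfaip3, the ubiquitin-editing enzyme A20, went from 9.21 to 7.96 and from 9.13 to 8.28, a fall of 1.05 ± 0.12. The NF-kB and cytokine list as a whole had 9 members that rose and 7 that fell in RAW among 35 tested, where 18.1% of all tested genes rose and 12.9% fell. Acp5, tartrate-resistant acid phosphatase, fell by 1.24 ± 0.15, Rbfox1, a splicing factor, by 1.38 ± 0.12, Zfp367 by 1.37 ± 0.1 and Esco2, a cohesin acetyltransferase, by 1.13 ± 0.13. In CT26 the shifts of these 6 falling genes lay between -0.12 and 0.12. The CT26 arrays of Rbfox1 were all below the floor, so a fall there could not have been seen. For Acp5 the second array of CT26 alone was below the floor. The difference between the lines was not called without the CT26 alone pair for Nlrp3, Irf8, Nfkbiz, Esco2 and Tnfaip3 (adjusted p = 0.117, 0.107, 0.0585, 0.114 and 0.0603), nor without the CT26 coculture pair for Nlrp3, Irf8, Nfkbiz, Tnfaip3 and Acp5 (0.0526, 0.0627, 0.139, 0.102 and 0.0999). It was also not called without the RAW alone pair for Acp5 and Esco2 (0.0599 and 0.0539), without the RAW coculture pair for Esco2 (0.0611), or with all probe sets averaged for Nfkbiz and Esco2 (0.123 and 0.0781).

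Long noncoding RNAs were among the other genes called in opposite directions. Malat1, a nuclear RNA, stood at 11.23 and 11.45 and then at 9.65 and 10.04 in CT26, and at 12.49 and 12.33 and then at 13.08 and 12.58 in RAW. It fell by 1.5 ± 0.11 in CT26, and its RAW rise of 0.42 ± 0.11 was not called without the RAW alone pair (adjusted p = 0.217). Its 6 other probe sets shifted by -1.02 to 0.14 in CT26 and by -0.31 to 2.12 in RAW. Kcnq1ot1, the antisense RNA of an imprinted domain, fell by 0.72 ± 0.1 in CT26 and rose by 1.28 ± 0.1 in RAW, and the CT26 call was lost without either CT26 pair (adjusted p = 0.0534 and 0.0653). The arrays hold single-stranded probes, but the strand that each probe set reports was not examined. Neat1, the RNA of paraspeckles, rose in RAW from 9.2 to 11.79 and from 9.05 to 10.68 by one probe set, while a second probe set shifted by 0.07 there.

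Shisa4, a small membrane protein, rose by 0.83 ± 0.11 in CT26 and fell by 1.02 ± 0.11 in RAW, and the CT26 call was lost without the CT26 coculture pair (adjusted p = 0.0718). For Shisa4 the second array of RAW alone was below the floor. Sema5a, a semaphorin, fell by 0.74 ± 0.17 in CT26 and rose by 0.94 ± 0.17 in RAW. Its CT26 call was lost without either CT26 pair (adjusted p = 0.137 and 0.132), and averaging its 4 probe sets turned the CT26 shift to 0.09. The difference between the lines, 1.68 ± 0.23, had an adjusted p of 0.0267, and of 0.0642 and 0.058 without the CT26 alone and the CT26 coculture pair. With its probe sets averaged that difference was 0.59 and was not called (adjusted p = 0.0661).

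Whether a culture was alone or cocultured had no called effect on the shift. The difference between the shift in coculture and the shift alone gave 0 called genes of 13196 (0%) in limma, 242 genes at an unadjusted p under 0.05, and a smallest adjusted p of 1. The genes with the largest moderated statistics and the same sign in both lines were Cd33, Spata13, Rasgrp3 and Spink5, with differences of 0.86 ± 0.16, 0.72 ± 0.14, 0.84 ± 0.16 and 1.11 ± 0.26, and Hoxd3os1, Lysmd1, Dio3os and Spink8, with -0.59 ± 0.12, -0.67 ± 0.15, -0.56 ± 0.12 and -0.61 ± 0.14. None of these 8 passed the threshold. For Rasgrp3, an exchange factor for Ras, the level went from 5.49 to 5.61 in CT26 alone, 5.43 to 6.28 in CT26 coculture, 10.17 to 10.4 in RAW alone and 8.94 to 10.12 in RAW coculture. This fit had no occasion term per line, so its spread also held the difference of the occasion shift between the lines. That difference took 13.5% of the sum of squares once the lines themselves were set aside. For Klf2 the SE was 0.47 in this fit and 0.13 for the difference between the lines. With this wider spread, 2 residual degrees of freedom and a median SE of 0.155, a missed threshold does not show that the shifts were equal.

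The array's own control probe sets shifted between occasions too. The 3 probe sets of 18S ribosomal RNA averaged 8.09 to 8.93 on the first occasion and 7.42 to 7.89 on the second, and they were lower in all 4 pairs, by 1.23 and 1.4 in the CT26 pairs and by 0.47 and 0.67 in the RAW pairs. Among the bacterial poly-A RNAs that are added to the sample before amplification, Lys shifted by -0.57 ± 0.37 and Phe by -0.49 ± 0.29 (mean and SD over 4 pairs), both lower in every pair. Dap was also lower in every pair, but by less (-0.12 ± 0.12, with shifts of -0.3 to -0.01), while Thr shifted by 0.08 ± 0.1. The 3′ probe set minus the 5′ probe set fell by 0.82 ± 0.13 for Thr and by 0.5 ± 0.11 for Dap, in 4 of 4 pairs each. It shifted by 0.06 ± 0.02 for Gapdh and 0.06 ± 0.08 for Actb. For 18S this difference shifted by 2.04 and 1.6 in the CT26 pairs and by -0.21 and 0.65 in the RAW pairs, so the 18S probe sets did not move together. For the transferrin receptor it shifted by -0.07 and 0 in the CT26 pairs and by 0.26 and 0.21 in the RAW pairs. Hybridisation spikes, added after labelling, shifted by -0.13 ± 0.14. A two-sided exact sign-flip test over 4 pairs cannot go below 0.125, the value it gave for 18S, Lys, Phe and Dap, and for other controls such as Gapdh. The part of what moved the controls in the shifts of genes was not tested.

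**Figure D5:**
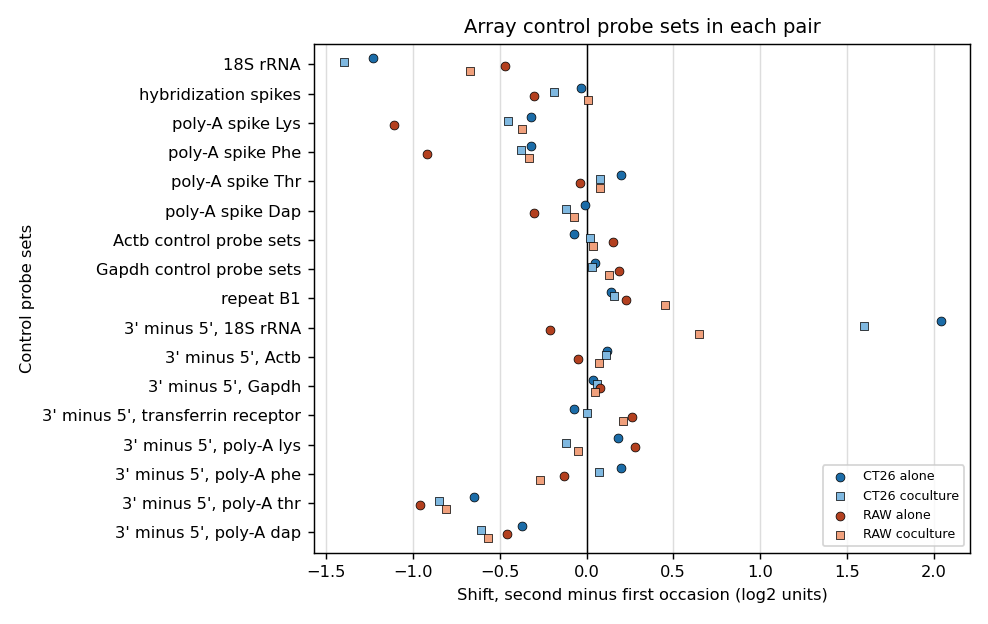
Shift of array control probe sets between occasions (x axis, log2 units), 1 point per pair. The 18S ribosomal RNA and the poly-A spikes Lys, Phe and, by less, Dap lie left of 0 in all 4 pairs, and the 3′ minus 5′ differences of the spikes Thr and Dap also do, while Gapdh and Actb lie near 0.

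Called genes differed from the rest in level and, slightly, in promoter composition. With the tested genes in 5 bins by mean level, from the lowest to the highest bin the share called higher was 3.52%, 11.7%, 25.5%, 25.6% and 17.7%, and the share called lower 1.7%, 4.21%, 12.2%, 19% and 19.2%. The shares of all tested genes set beside the gene lists were not matched for level. Of tested genes, 10565 (80.1%) had a promoter in the RefSeq set used. In 5 bins by promoter GC, from the lowest (26.3% to 52.7% GC) to the highest (68.7% to 89.3%), the share called higher went from 10.7% to 22.2%, and the share called lower stayed between 10.7% and 12.7%. Across these genes the shared shift correlated with promoter GC at r = 0.1 and with log2 gene length at r = -0.03. Genes are not independent replicates, and these are descriptions.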

How the data were processed

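The authors deposited log2 values of 8 single-colour Affymetrix arrays, 1 per sample. The submitters' processing notes name RMA and affy. Their versions were not given in the sources used here. Array medians of 5.88 to 5.94 and sorted columns within 0.158 of each other show that the arrays share 1 distribution, so a change in total RNA per cell would not be seen. RMA compresses the lowest signals, and precision is limited by there being 8 arrays. The table held 64 array controls and 45037 further probe sets, and the platform annotation gave 1 gene symbol for 34945 of these, several for 932 and none for 9160. Each gene took its probe set with the highest mean over 8 arrays. Tested genes exceeded a floor, the 40th percentile of each array, on both occasions in at least 1 of the 4 groups.

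Shifts were fitted with limma 3.58.1 in R 4.3.3, with the 4 groups as terms, which pairs the arrays within a group, and either 1 occasion term (3 residual degrees of freedom), 1 per line, or 1 for coculture and 1 for culture alone (2 residual degrees of freedom each). Tests were two-sided, adjusted by Benjamini-Hochberg over all tested genes. The scripts were tested on simulated data. Arrays of an occasion share their experiment, and nothing in the labels says how the cultures of an occasion were prepared. Named genes were the 12 largest shared rises and falls with 1 sign in all 4 pairs, the 6 largest of each direction called in 1 line only with a called difference between the lines, the 6 widest called with opposite signs, 4 per direction for coculture, and called members of lists. Genes, lists and rules were chosen with earlier results of these data known. Of 1368 list symbols, 27 were matched under another symbol through RefSeq. Promoters are those of RefSeq (GRCm38.p6), the first listed of each gene, and those on chr18 were left out. The closing section gives the alternatives.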

Additional observations from a re-analysis of the deposited data

Results flagged for a closer look

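The following results differed between the 2 lines by the test of the difference itself, the RAW shift minus the CT26 shift in log2 units (limma, adjusted p under 0.05). The difference was called for 269 of 13196 genes. No explanation of these differences was tested.

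Of the genes that rose in CT26, the difference was -1.5 for Fosb, -1.8 for H3c4, -1.42 for Col1a1, -1.55 for Syde1, -1.45 for Scarf2 and -1.13 for Lypd5. Of those that fell in CT26, it was 2.24 for Nsd1, 1.9 for Ankrd37, 1.41 for Bnip3, 1.57 for C130075A20Rik, 1.72 for Ero1a and 1.47 for Xaf1, so that hypoxia targets and an interferon-stimulated gene stood beside a histone methyltransferase. For C130075A20Rik every RAW array was below the floor, so the difference does not show that its fall was particular to CT26.

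In RAW the rising genes differed by 1.95 for Ccnd2, 2.15 for Pdgfb, 2.45 for Neat1, 2.3 for Ccl4, 1.55 for Gas6 and 1.74 for Nlrp3, and the falling ones by -1.49 for Rbfox1, -1.26 for Zfp367, -1.31 for Nfkbiz, -1.26 for Acp5, -1.01 for Esco2 and -1.12 for Tnfaip3. Every CT26 array of Rbfox1 was below the floor, so its difference does not show that the fall was particular to RAW. For the genes called with opposite signs it was 2.28 for Eno2, 2 for Kcnq1ot1, 1.92 for Malat1, -1.85 for Shisa4, 1.68 for Sema5a and 1.57 for Oas3. Leaving out 1 of the 4 pairs gave an adjusted p between 0.0526 and 0.139 at least once for Col1a1, Lypd5, C130075A20Rik, Nlrp3, Nfkbiz, Acp5, Esco2, Tnfaip3 and Sema5a, and the other genes of this section kept the call. Of genes named elsewhere, leaving out 1 pair also ended the call of this difference for Klf2, Plekho2, Cytip, Ccl3, Ptgs2, Irf8, Oas1a, Rsad2, Plod2, P4ha1 and Ndrg1. Groups of 4 or more samples do not exist in this design, so single arrays were not examined for outlying values.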

How the results depend on the processing

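Every fit paired the arrays of the 2 occasions within a group. With the replicate number as a block, no paired analysis was possible because that number is itself the contrast tested. Counts of called genes stayed within 1.5 times the reported ones with no filter on dim genes, a stricter filter, all probe sets averaged, cyclic loess, quantile normalization within each line, and, for the shared shift, the mean of the line terms (5135 genes), as they did with the arrays of 1 line alone. With trended and robust variances the difference between the lines was called for 649 genes in place of 269. Leaving out 1 pair of arrays at a time gave 2169 to 2886 genes for the shared shift, 265 to 3255 for CT26, 2537 to 3616 for RAW, and 98 to 369 for the difference between the lines; the pair left alone in a line is then assumed to vary like the others. The difference between coculture and culture alone gave 0 genes under every alternative run. The share of the sum of squares between occasions ranged from 48.4% to 60.1%. Of 186 values of named genes and contrasts, 147 kept their direction and their side of the threshold under every alternative that gave a value, and 1 changed sign, the CT26 shift of Sema5a (0.09 with all probe sets averaged). Medians of gene lists were held against the SD of the list medians over the pairs. Over the alternatives 1159 values stayed within 1 SD of the reported median and 194 moved further. Of those that moved, 47 came from averaging all probe sets and 60 from leaving out 1 pair. The causes of these changes were not tested.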
